A study of Mus musculus with 7 samples.

Results

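The CC chemokines described here are 10 genes, *Ccl2*, *Ccl3*, *Ccl4*, *Ccl5*, *Ccl6*, *Ccl7*, *Ccl8*, *Ccl9*, *Ccl11* and *Ccl12*, taken by symbol from the 47729 gene identifiers of the count table. All 10 were found, and all 10 passed the filter on low counts. CC chemokines are small secreted proteins with adjacent cysteines near the amino terminus, which bind G protein-coupled receptors on leukocytes and draw those cells into tissue. In the vessel wall the monocyte attractants of the family are best known for bringing Ccr2-bearing monocytes into injured or dilating aorta, and macrophages, once there, make several members themselves. *Ccl6*, *Ccl9* and *Ccl12* are mouse genes without a simple human counterpart.

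RNA was sequenced from the aorta of mice labelled as *Mmp19* knockouts (Mmp19-/-, called KO here, 3 libraries) and of wild-type mice (WT, 4 libraries). The product of *Mmp19* is a matrix metalloproteinase released by cells, and the series concerns its role in smooth muscle in thoracic aortic aneurysm and dissection. Genotype was the sole factor in the labels. Age, sex, strain, any treatment, the way the allele was made and whether each library came from a separate mouse are not given in the labels, so p-values measure the spread between these libraries, which may be technical.

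The libraries held 68151472 to 76926790 estimated counts, and no library was a duplicate of another. Levels are given as CPM, that is, the deposited counts relative to each library's total after its correction by TMM (edgeR's trimmed mean of M values), in the order of replicates 1, 2 and 3 for KO and 1, 2, 3 and 4 for WT. *Mmp19* itself read 25.5, 12.0 and 15.9 CPM in KO and 24.8, 24.8, 20.7 and 34.7 CPM in WT, a log2 fold change of -0.56 (SE 0.29, edgeR quasi-likelihood adjusted p = 0.368). Since a count per gene hides the exons that its reads fell in, the label KO could not be checked this way. Smooth muscle markers, which define the tissue, were abundant in every library, at a summed 3305, 13121 and 6822 CPM in KO and 17427 to 19291 CPM in WT.

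The 10 genes lie on chromosome 11 in 2 blocks (GRCm38). *Ccl2*, *Ccl7*, *Ccl11*, *Ccl12* and *Ccl8* fill the first block, from 82035571 to 82116799, a span of 81.2 kb. *Ccl5*, *Ccl9*, *Ccl6*, *Ccl3* and *Ccl4* fill the second, from 83525778 to 83664683, a span of 139 kb that begins 1.41 Mb further on. *Ccl6* is overlapped on the opposite strand by E230016K23Rik, which held 375 counts over the 7 libraries, and *Ccl2* by Gm17268, which held 0.

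Upstream sequence was matched in RefSeq (GRCm38.p6) for 5 of the 10 members, namely *Ccl3*, *Ccl6*, *Ccl8*, *Ccl9* and *Ccl12*. The 250 bases before the start are shown for *Ccl6* and *Ccl9*, the most alike of all members in their levels across libraries, for *Ccl8*, the next most like *Ccl6*, and for *Ccl12*, a monocyte attractant with the other pattern described below. Capitals mark the matches to the searched motifs and, in *Ccl6* and *Ccl9*, the longest run of bases common to both.
Ccl6 promoter, chr11:83593088-83593337 (minus strand): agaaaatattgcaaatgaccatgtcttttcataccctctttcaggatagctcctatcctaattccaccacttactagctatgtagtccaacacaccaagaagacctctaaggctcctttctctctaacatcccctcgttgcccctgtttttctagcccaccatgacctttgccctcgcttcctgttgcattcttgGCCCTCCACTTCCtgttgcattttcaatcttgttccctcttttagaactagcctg
Ccl9 promoter, chr11:83578637-83578886 (minus strand): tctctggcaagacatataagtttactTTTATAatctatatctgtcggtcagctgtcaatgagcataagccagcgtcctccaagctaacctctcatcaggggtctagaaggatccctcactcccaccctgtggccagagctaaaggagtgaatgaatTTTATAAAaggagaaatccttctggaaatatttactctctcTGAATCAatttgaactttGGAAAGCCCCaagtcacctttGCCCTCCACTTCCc
Ccl8 promoter, chr11:82114935-82115184 (plus strand): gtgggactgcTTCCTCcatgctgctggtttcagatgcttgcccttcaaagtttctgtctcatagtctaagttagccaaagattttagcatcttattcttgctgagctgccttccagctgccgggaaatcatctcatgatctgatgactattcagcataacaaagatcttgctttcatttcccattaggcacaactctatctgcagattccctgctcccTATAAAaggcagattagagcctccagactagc
Ccl12 promoter, chr11:82101595-82101844 (plus strand): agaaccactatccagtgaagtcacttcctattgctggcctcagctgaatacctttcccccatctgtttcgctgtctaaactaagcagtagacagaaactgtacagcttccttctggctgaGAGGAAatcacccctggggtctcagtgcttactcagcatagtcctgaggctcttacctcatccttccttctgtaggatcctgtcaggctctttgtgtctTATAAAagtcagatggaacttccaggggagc

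The *Ccl6* and *Ccl9* windows had the run GCCCTCCACTTCC in common, 13 bases long, starting at -55 in *Ccl6* and at -14 in *Ccl9*. The longest run common to any other of the 10 pairs of windows was 7 to 9 bases. The motifs were searched on both strands: TATAAA for the TATA box, present in 12.4% of 32851 mouse promoter windows of that length, the kappaB consensus (7.25%), TGANTCA for AP-1 (6.75%), GAGGAA for the core of the myeloid factor PU.1 (23.3%), TTGCNNAA for C/EBP (9.56%), TTCNNNGAA for GAS (7.02%) and the interferon-response consensus ISRE (2.98%).

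*Ccl8* and *Ccl12* each held a TATA box in the position usual for it, at -32 and at -31, and 1 PU.1 core each, at -240 on the minus strand and at -130 on the plus strand. The *Ccl9* window held TATA-box matches at -224 and -94 on the minus strand and at -92 on the plus strand, the last 2 of which overlap, an AP-1 match at -53 and a kappaB match at -35 on the minus strand. The *Ccl6* window held none of the 7 motifs, and that of *Ccl3* held 1 PU.1 core, at -33 on the minus strand. A match describes letters and is not evidence of binding.

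Of the 10 members, 9 had higher mean levels in KO than in WT by 4-fold or more on the fitted scale, and *Ccl11* had nearly the same level in both. The median log2 fold change of the members was 3.31, against -0.03 over all 19188 genes tested. Without KO replicate 1 it was 2.64, and with limma-voom 2.57. All 10 log2 fold changes were above 0, as were 46.9% of those of all genes. None of the members passed edgeR's quasi-likelihood test after adjustment over all genes (0 of 10, background 0.0156% of genes called higher). At an unadjusted p under 0.05, 9 of 10 were higher and 0 lower, where 9.92% of all genes were higher and 7.27% lower. DESeq2 called 9 of 10 higher (background 5.32%), limma-voom with quality weights called 0 (background 0.0365%), and edgeR without KO replicate 2 called 8 higher and 0 lower (background 3.34% higher and 1.81% lower).

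For 6 of 10 members the lowest KO library exceeded the highest WT library, which held for 8.17% of all genes, and for 0 the order was the opposite (8.56% of all genes). KO replicate 3 lay above the WT range for all 10 members, KO replicate 1 for 9 and KO replicate 2 for 6. Among the WT libraries, replicate 4 was highest for 8 of 10. The share over all genes was not computed for these counts of single libraries, so they are a description only. In bulk tissue, fewer cells of a type and less RNA per cell cannot be told apart. The plot of each member's level by library shows these orders.

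**Figure D1:**
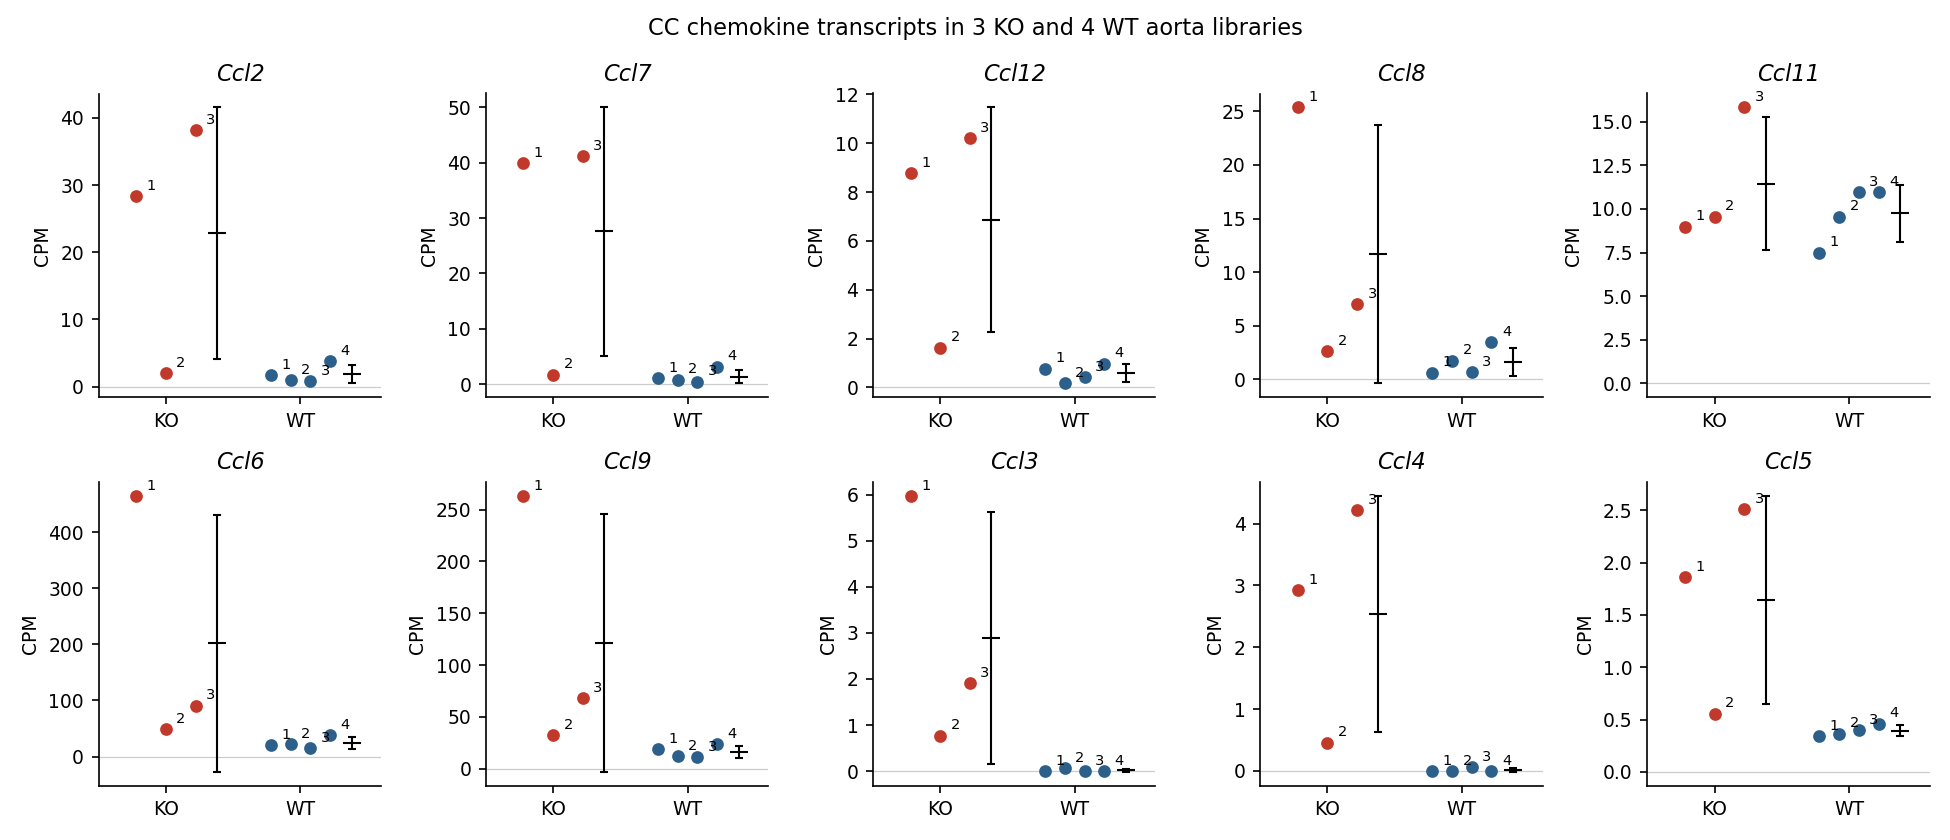
CPM of each CC chemokine (vertical axis, linear, a scale for each gene) in the KO and WT libraries; numbered points are replicates and the bar beside each group is its mean ± SD. For *Ccl11* the KO points, 8.98 to 15.8 CPM, overlap the WT points, 7.49 to 11.0 CPM, while for *Ccl6* KO replicate 1 stands at 465 CPM and the highest WT library at 38.4 CPM.

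The ligands of Ccr2 come first. *Ccl2*, the principal attractant of inflammatory monocytes, read 28.4, 2.00 and 38.2 CPM in KO and 1.71, 1.01, 0.875 and 3.79 CPM in WT. KO replicates 1 and 3 stood far above all WT libraries, and KO replicate 2 was within their range. Means were 22.8 ± 18.7 CPM for KO (SD, n = 3) and 1.85 ± 1.34 CPM for WT (SD, n = 4). The log2 fold change was 3.63 (SE 0.94), with an adjusted p of 0.175 in edgeR and of 0.00059 in DESeq2. An exact 2-sided permutation of the 7 libraries gave p = 0.0571, where the smallest that 35 splits allow is 0.0286.

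*Ccl7*, the neighbour of *Ccl2* on the chromosome and a ligand of Ccr2 and other receptors, read 39.9, 1.70 and 41.1 CPM in KO and 1.02, 0.803, 0.430 and 3.15 CPM in WT. It had the same order as *Ccl2*, with 2 high KO libraries and KO replicate 2 inside the WT range. Its log2 fold change was 4.35 (SE 1.09; edgeR adjusted p = 0.174; DESeq2 adjusted p = 0.000141), and the exact permutation p was 0.0571.

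*Ccl12*, a mouse Ccr2 ligand, read 8.78, 1.63 and 10.2 CPM in KO and 0.768, 0.169, 0.430 and 0.978 CPM in WT. Here KO replicate 2 also lay above all WT libraries, by a factor of 1.67 over the highest. The log2 fold change was 3.55 (SE 0.77; edgeR adjusted p = 0.166; DESeq2 adjusted p = 9.92e-05), with an exact permutation p of 0.0286.

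*Ccl8* acts in mice mainly through Ccr8 and is named with the monocyte attractants from its sequence. It read 25.4, 2.64 and 7.04 CPM in KO and 0.627, 1.75, 0.660 and 3.48 CPM in WT. KO replicate 1 stood alone at the top, KO replicate 3 was above the WT range and KO replicate 2 within it. Its log2 fold change was 2.84 (SE 0.89; edgeR adjusted p = 0.200; DESeq2 adjusted p = 0.00972; exact permutation p = 0.0857). Without KO replicate 1 it was 1.57 (SE 0.77).

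*Ccl11*, eotaxin, attracts eosinophils through Ccr3 and is made by fibroblasts and smooth muscle rather than mainly by leukocytes. It read 8.98, 9.55 and 15.8 CPM in KO and 7.49, 9.56, 11.0 and 11.0 CPM in WT. KO replicate 3 alone lay outside the range of WT. A log2 fold change of 0.23 (SE 0.25) missed the threshold in edgeR (adjusted p = 0.676) and in DESeq2 (adjusted p = 0.660), and the exact permutation p was 0.571. Without KO replicate 3 the estimate was -0.063 (SE 0.22), so its sign rests on that library.

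*Ccl6* and *Ccl9*, ligands of Ccr1 made chiefly by myeloid cells, were the most abundant members in KO. *Ccl6* read 465, 49.0 and 90.9 CPM in KO and 20.2, 21.8, 15.5 and 38.4 CPM in WT. All KO libraries lay above all WT libraries, and KO replicate 1 held 5.11 times the level of KO replicate 3. The log2 fold change was 3.07 (SE 0.75; edgeR adjusted p = 0.172; DESeq2 adjusted p = 0.000418; exact permutation p = 0.0286). Without KO replicate 1 it was 1.54 (SE 0.38).

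*Ccl9* followed *Ccl6* closely. It read 263, 32.2 and 68.3 CPM in KO and 18.8, 11.8, 11.1 and 23.7 CPM in WT. The groups did not overlap, and again KO replicate 1 was far above the rest. The log2 fold change was 2.89 (SE 0.68; edgeR adjusted p = 0.170; DESeq2 adjusted p = 0.000347; exact permutation p = 0.0286), and 1.62 (SE 0.39) without KO replicate 1. The level per kilobase of exon of *Ccl6* was 2.26 to 2.99 times that of *Ccl9* in KO and 1.82 to 3.12 times in WT, so this ratio overlapped between the groups.

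*Ccl3* and *Ccl4*, the macrophage inflammatory proteins, of which *Ccl3* binds Ccr1, were close to absent from WT. *Ccl3* read 5.98, 0.771 and 1.90 CPM in KO, and 0.0704 CPM in WT replicate 2 with 0 in the other WT libraries. These are 693 deposited counts in KO and 5 in WT. A library with 0 counts allows up to 3 counts, which is 0.0407 to 0.047 CPM in WT, for counting error alone.

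*Ccl4* read 2.93, 0.457 and 4.22 CPM in KO, and 0.0574 CPM in WT replicate 3 with 0 in the other WT libraries. Its WT counts summed to 4. KO replicate 1 was highest for *Ccl3* and KO replicate 3 for *Ccl4*, while KO replicate 2 was lowest of the KO libraries for both. The log2 fold changes, which for such low WT counts depend on the prior count, were 7.20 (SE 1.32) for *Ccl3* and 7.30 (SE 1.29) for *Ccl4*. Without WT replicate 2, the only WT library with *Ccl3* counts, that of *Ccl3* was 10.76, and without WT replicate 3 that of *Ccl4* was 10.53. Each had an edgeR adjusted p of 0.165 and an exact permutation p of 0.0286, and DESeq2 gave adjusted p-values of 3.58e-06 for *Ccl3* and 2.7e-06 for *Ccl4*.

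*Ccl5*, which binds Ccr1 and Ccr3 among others and is made by T and NK cells as well as by macrophages, was low throughout. It read 1.86, 0.557 and 2.51 CPM in KO and 0.345, 0.366, 0.402 and 0.462 CPM in WT. The groups did not overlap, and the WT libraries were tighter than for any other member detected in all of them relative to the mean (0.394 ± 0.0511 CPM, SD, n = 4). A log2 fold change of 2.06 was fitted (SE 0.50; edgeR adjusted p = 0.172; DESeq2 adjusted p = 0.00746; exact permutation p = 0.0286). The plot of fold changes sets these estimates beside those without KO replicate 1 and without KO replicate 2.

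**Figure D2:**
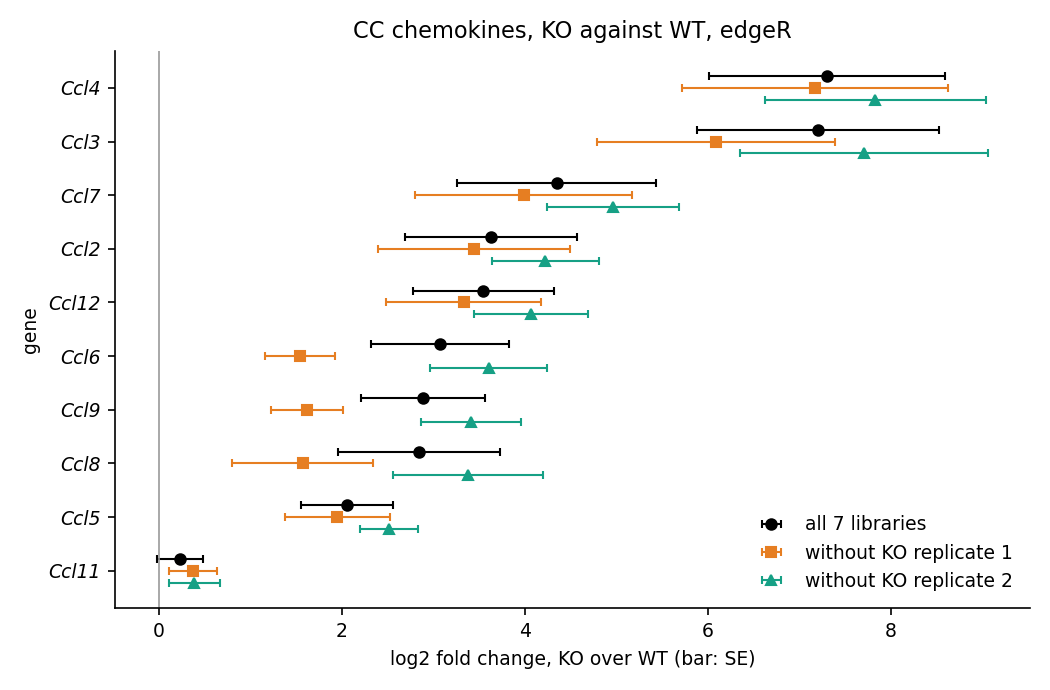
Log2 fold change of each CC chemokine, KO over WT, from edgeR (horizontal axis; bars are the SE), with all 7 libraries (circles), without KO replicate 1 (squares) and without KO replicate 2 (triangles). *Ccl6*, *Ccl9* and *Ccl8* lie at 3.07, 2.89 and 2.84 with all libraries and at 1.54, 1.62 and 1.57 without KO replicate 1, whereas *Ccl2*, *Ccl7* and *Ccl12* stay at 3.33 or more in each fit shown. Without KO replicate 3, the highest library for these last 3 genes and a fit not shown, they were 3.07, 3.98 and 3.18.

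The 2 high KO libraries did not carry the same mixture of chemokines. *Ccl3*, *Ccl6*, *Ccl8* and *Ccl9* were 3.14, 5.11, 3.60 and 3.86 times as high in KO replicate 1 as in KO replicate 3. For *Ccl2*, *Ccl4*, *Ccl5*, *Ccl7*, *Ccl11* and *Ccl12* the same ratio was 0.744, 0.694, 0.740, 0.970, 0.568 and 0.859. The split did not follow the 2 blocks on the chromosome, as *Ccl8* lies in the first and *Ccl4* and *Ccl5* in the second. These ratios compare single libraries of 1 group and have no test.

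Levels relative to the WT mean were most alike for *Ccl6* and *Ccl9*, with a root mean square difference of 0.25 on the log2 scale over the 7 libraries. *Ccl6* with *Ccl8* followed at 0.50, *Ccl2* with *Ccl7* at 0.54 and *Ccl2* with *Ccl12* at 0.67. The members farthest apart were *Ccl3* and *Ccl11*, at 3.81. All pairs share the same libraries, and the values are a description.

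**Figure D3:**
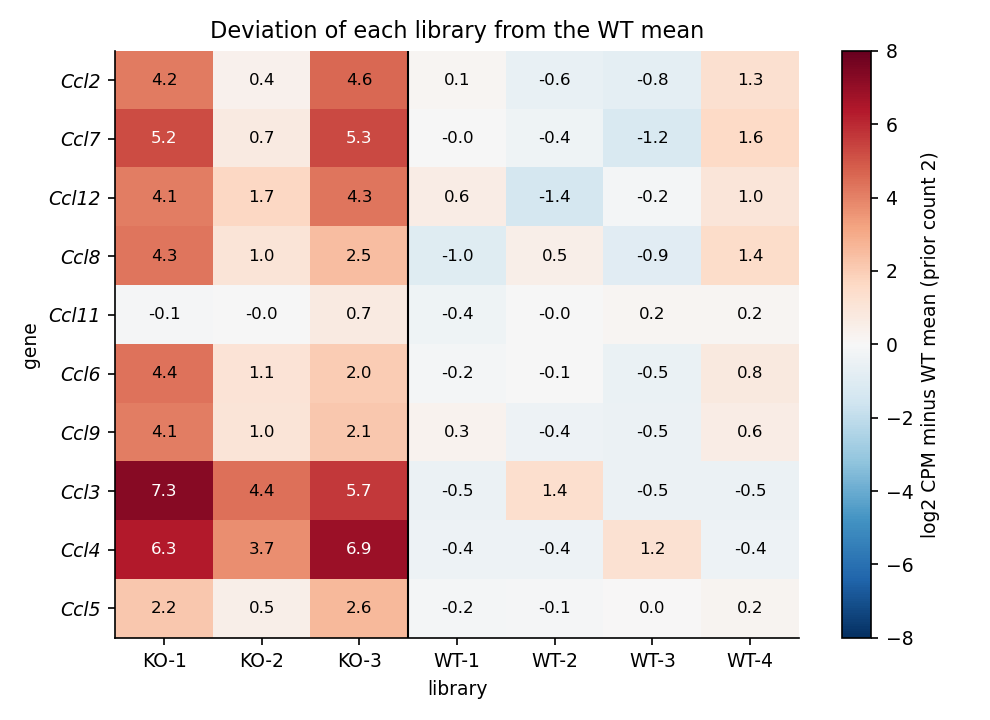
Log2 CPM (prior count 2) of each CC chemokine in each library minus its mean over the WT libraries, red above and blue below, with KO libraries to the left of the line and WT to the right. KO replicate 2 is the palest KO column, and *Ccl11* stays between -0.36 and 0.71 over all libraries.

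Per kilobase of exon, *Ccl6* was highest in both groups, at 112 ± 128 CPM per kilobase in KO (SD, n = 3) and 13.4 ± 5.56 CPM per kilobase in WT (SD, n = 4). The order of means in KO was *Ccl6*, *Ccl9*, *Ccl7*, *Ccl8*, *Ccl2*, *Ccl12*, *Ccl11*, *Ccl4*, *Ccl3* and *Ccl5*. In WT it was *Ccl6*, *Ccl11*, *Ccl9*, *Ccl8*, *Ccl7*, *Ccl2*, *Ccl12*, *Ccl5*, *Ccl3* and *Ccl4*. Neighbours in these orders overlapped in range, except *Ccl11* over *Ccl4* in KO and *Ccl5* over *Ccl3* in WT. *Ccl11* thus ranked 7 in KO, at 10.6 ± 3.51 CPM per kilobase (SD, n = 3), and 2 in WT, at 9.01 ± 1.52 CPM per kilobase (SD, n = 4). By coding length in place of exon length it ranked 6 in KO and 3 in WT, and *Ccl9* stood above it in both.

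The summed level of the 10 members was 850, 101 and 280 CPM in KO and 50.9, 47.3, 40.4 and 84.9 CPM in WT. Of the sum per kilobase, *Ccl11* made up 1.63%, 14.5% and 6.74% in KO and 18.2% to 38.5% in WT, without overlap. The level of *Ccl11* itself overlapped between the groups. The sum it is divided by was 61.1 CPM per kilobase or more in KO and 55.7 or less in WT. *Ccl6* and *Ccl9* together made up 67.9%, 62.0% and 33.7% in KO and 46.7% to 57.8% in WT. The trio *Ccl2*, *Ccl7* and *Ccl12* made up 17.9%, 11.3% and 47.9% in KO and 7.13% to 16.3% in WT. Per kilobase of exon, the Ccr2 ligands thus held a larger share than *Ccl6* and *Ccl9* in KO replicate 3 alone. In CPM, without division by length, *Ccl6* and *Ccl9* still led there, at 90.9 and 68.3 CPM. *Ccl2*, *Ccl7* and *Ccl12* read 38.2, 41.1 and 10.2 CPM in that library, so the order depends on the exon lengths used.

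**Figure D4:**
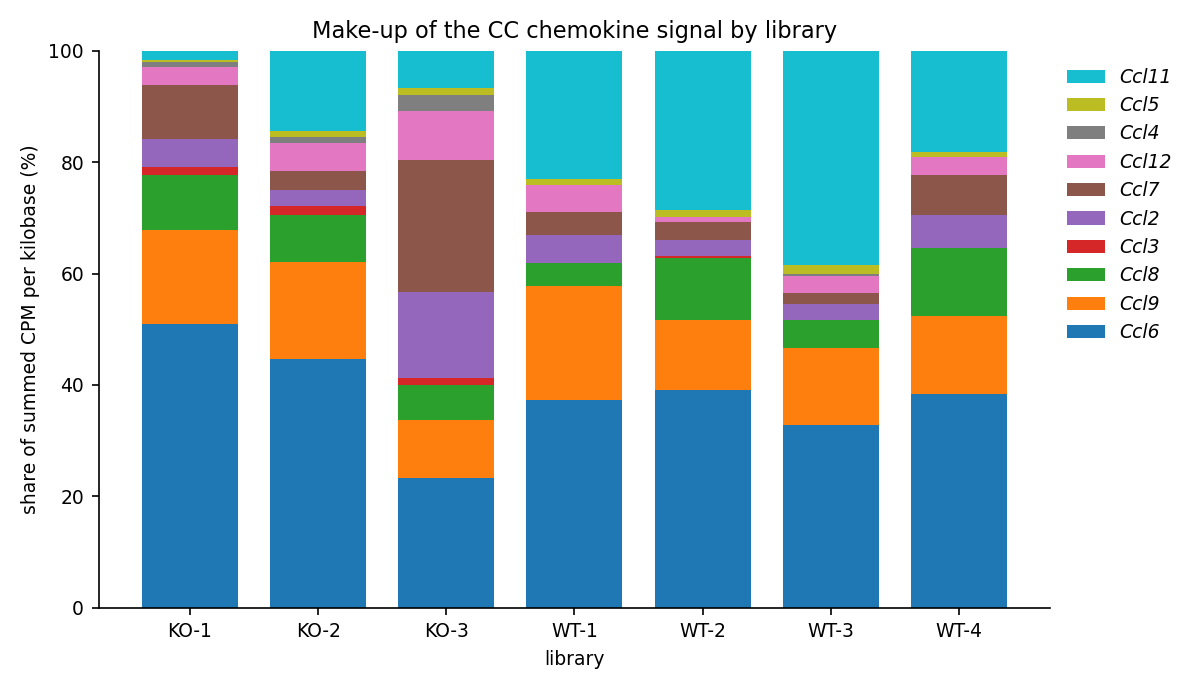
Share of each CC chemokine in the summed CPM per kilobase of exon of the 10 genes (vertical axis, percent), 1 bar for each library, KO to the left of WT. *Ccl11*, the top segment, is 1.63% to 14.5% in KO and 18.2% to 38.5% in WT, and the segments of *Ccl2*, *Ccl7* and *Ccl12* sum to 47.9% in KO replicate 3.

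For *Ccr1* and *Ccr2*, receptors that bind these ligands, all KO libraries lay above all WT libraries. *Ccr1*, the receptor of *Ccl3*, *Ccl5*, *Ccl6*, *Ccl7* and *Ccl9*, read 110, 6.33 and 26.2 CPM in KO and 2.49, 1.80, 1.03 and 2.70 CPM in WT. *Ccr2*, the monocyte receptor of *Ccl2*, *Ccl7* and *Ccl12*, read 261, 24.4 and 59.6 CPM in KO and 3.21, 9.64, 5.97 and 16.4 CPM in WT.

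The order of the KO libraries was the same in both receptors, with replicate 1 highest and replicate 2 lowest, as in *Ccl3*, *Ccl6*, *Ccl8* and *Ccl9*. By contrast, the Ccr2 ligands *Ccl2*, *Ccl7* and *Ccl12*, and *Ccl5*, a ligand of Ccr1, were highest in KO replicate 3. The log2 fold changes were 4.56 (SE 0.90; edgeR adjusted p = 0.165) for *Ccr1* and 3.70 (SE 0.87; edgeR adjusted p = 0.170) for *Ccr2*. Of the 10 CC receptors listed, 8 were tested, of which edgeR called 0. At an unadjusted p under 0.05 in edgeR, 4 were higher (background 9.92%). DESeq2 and edgeR without KO replicate 2 each called 2 higher (background 5.32% and 3.34%). The median log2 fold change of the tested receptors was 1.43, and 0.41 without KO replicate 1.

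*Ccr3*, the eotaxin receptor of eosinophils, read 10.8, 0.214 and 0.984 CPM in KO and 0, 0.225, 0.229 and 0.842 CPM in WT. Its high value was confined to KO replicate 1 among the 7 libraries, and *Siglecf*, an eosinophil marker, read 18.4 CPM there and 0.0714 and 0.427 CPM in KO replicates 2 and 3, against 0.125 to 0.285 CPM in WT. *Ccl11* was not raised in that library, at 8.98 CPM. Of the 7 mast cell and eosinophil markers tested, *Siglecf* alone was higher at an unadjusted p under 0.05 in edgeR (background 9.92%). The summed level of that list overlapped between the groups. *Ccr7*, the receptor of migrating dendritic cells, read 5.29, 0.343 and 2.85 CPM in KO and 0.219 to 1.06 CPM in WT.

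The remaining receptors listed did not separate the groups. *Ccr9* read 1.56 to 6.78 CPM in KO and 1.09 to 16.3 CPM in WT, and *Ccr10* 1.82 to 4.71 CPM in KO and 2.90 to 5.93 CPM in WT. *Ccr4* and *Ccr6* stayed at or below 0.583 CPM in KO and at or below 1.41 CPM in WT. *Ccr8*, through which mouse *Ccl8* acts, was at or below 0.0714 CPM in KO and at or below 0.113 CPM in WT, and *Ccr1l1* did not exceed 0.328 CPM in KO or 0.0627 CPM in WT. Of the atypical receptors, which bind or remove chemokines without signalling to migration, none of 4 was called by edgeR or DESeq2, and none had an unadjusted p under 0.05 in edgeR. *Ackr2*, the scavenger of inflammatory CC chemokines, read 2.99, 5.37 and 5.62 CPM in KO and 3.24 to 5.88 CPM in WT, and *Ackr1*, *Ackr4* and *Ccrl2* also overlapped between the groups.

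**Figure D5:**
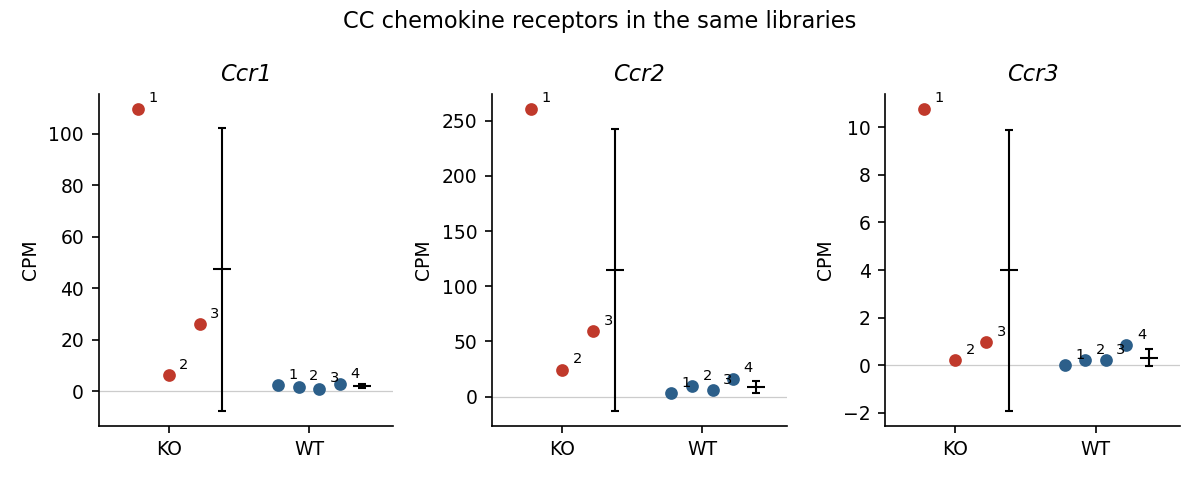
CPM of 3 CC chemokine receptors (vertical axis, linear, a scale for each gene) in the KO and WT libraries; numbered points are replicates and the bar beside each group is its mean ± SD. KO replicate 1 is the highest point for each, at 110 CPM for *Ccr1*, 261 CPM for *Ccr2* and 10.8 CPM for *Ccr3*, and for *Ccr3* the other KO libraries, at 0.214 and 0.984 CPM, lie within or just above the WT range, which ends at 0.842 CPM.

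The other 11 CC chemokines of the mouse, which serve lymphoid homing, type 2 immunity and epithelia, differed less as a set and were mixed. Of the 8 tested, edgeR and DESeq2 called 0, and 1 (*Ccl17*) was higher at an unadjusted p under 0.05 in edgeR (background 9.92%). The log2 fold change of *Ccl17* was 3.24 (SE 1.27, edgeR adjusted p = 0.258). The summed level of the 11 genes was 31.1, 29.7 and 30.0 CPM in KO and 28.1 CPM or less in WT, without overlap. The median log2 fold change of those tested was 0.65, and 6 of the 8 were above 0 (46.9% of all genes). *Ccl22*, a macrophage and dendritic cell product that attracts Ccr4-bearing T cells, read 4.18, 0.143 and 3.87 CPM in KO and 0.313, 0.451, 0.459 and 1.30 CPM in WT. KO replicates 1 and 3 were above every WT library, as for *Ccl2* and *Ccl7*, and KO replicate 2 was below every WT library. The log2 fold change of *Ccl22* was 2.11 (SE 0.98, edgeR adjusted p = 0.321).

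*Ccl24*, another eotaxin, read 8.47, 1.14 and 1.64 CPM in KO and 2.18 to 3.07 CPM in WT, so that KO replicate 1 lay above and the other KO libraries below the WT range. *Ccl17* was at or below 1.20 CPM in KO and 0.125 CPM in WT. *Ccl19* (1.14 to 2.10 CPM in KO, 0.688 to 1.35 CPM in WT), *Ccl25* (5.13 to 6.65 CPM in KO, 4.98 to 7.12 CPM in WT) and *Ccl28* (0.0972 to 0.643 CPM in KO, 0.0543 to 0.577 CPM in WT) overlapped. *Ccl21a* and *Ccl27a* also overlapped, but have near-identical copies between which reads may be split. *Ccl1* and *Ccl26* had 0 counts in every library, and *Ccl20* had counts in KO replicate 1 alone, at 0.134 CPM.

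Signals that induce these chemokines through NF-kappaB were not uniformly different. Of 22 such genes, edgeR called 0 and DESeq2 7, all higher in KO (background 5.32%). At an unadjusted p under 0.05 in edgeR, 9 were higher (background 9.92%). The summed level of the 22 overlapped, at 592 to 1028 CPM in KO and 563 to 771 CPM in WT. *Il1b*, which encodes a cytokine that induces *Ccl2*, read 17.1, 1.21 and 28.1 CPM in KO and 0.125 to 0.434 CPM in WT (log2 fold change 5.90, SE 1.01, edgeR adjusted p = 0.165). *Il6* read 6.37, 0.214 and 18.2 CPM in KO, and 0.0679 CPM in WT replicate 4 with 0 in the other WT libraries. Both cytokines were higher in KO replicate 3 than in KO replicate 1, as *Ccl2*, *Ccl4*, *Ccl5*, *Ccl7*, *Ccl11* and *Ccl12* were. *Tlr2*, a receptor for bacterial lipoproteins, and *Spi1*, which encodes PU.1, had non-overlapping groups and were highest in KO replicate 1, at 33.7 and 68.1 CPM, against WT maxima of 10.8 and 6.35 CPM.

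Among genes for type 2 and oncostatin signals, which induce eotaxins, edgeR called 0 and DESeq2 6 of 9 tested, all higher (background 5.32%). At an unadjusted p under 0.05 in edgeR, 6 were higher (background 9.92%). *Osmr* read 147, 84.5 and 142 CPM in KO and 39.5 to 58.9 CPM in WT, *Il13ra1* 90.0, 36.1 and 58.9 CPM in KO and 19.6 to 26.8 CPM in WT, and *Il4ra* 330, 39.2 and 112 CPM in KO and 26.8 to 34.3 CPM in WT. Groups did not overlap for these receptor genes. *Il4*, the ligand of *Il4ra*, did not overlap in the other direction, at 0.936, 0.885 and 0.880 CPM in KO and 1.03 to 1.84 CPM in WT (log2 fold change -0.62, SE 0.30, edgeR adjusted p = 0.344); it lies outside the naming rule and was chosen after its values were seen. *Osm*, the oncostatin ligand, read 3.72, 0.171 and 6.31 CPM in KO and 0.0861 to 0.239 CPM in WT.

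Of 23 genes for signalling behind chemokine receptors, edgeR called 0. At an unadjusted p under 0.05 in edgeR, 13 were higher and 1 lower (background 9.92% and 7.27%). DESeq2 called 10 higher and 1 lower (background 5.32% and 3.05%). *Dock2*, which drives leukocyte motility, read 83.0, 15.7 and 23.4 CPM in KO and 5.11 to 11.4 CPM in WT. The kinase gene *Fgr* read 41.8, 1.68 and 8.20 CPM in KO and 0.596 to 1.94 CPM in WT, and *Pik3r5* and *Pik3cg*, for the regulatory and catalytic parts of a phosphoinositide kinase, were also highest in KO replicate 1. Of 10 tested genes for proteases that trim or shed chemokines, edgeR called 0 and DESeq2 4, all higher (background 5.32%). At an unadjusted p under 0.05 in edgeR, 9 were higher (background 9.92%). The macrophage elastase *Mmp12* read 17.6, 2.97 and 9.41 CPM in KO and 0.439 to 1.38 CPM in WT, and the collagenase *Mmp13* 3.56, 0.857 and 4.78 CPM in KO and 0.253 to 0.473 CPM in WT. *Mmp3*, a stromelysin, and the sheddase *Adam17* had smaller log2 fold changes, of 0.84 (SE 0.23) and 0.51 (SE 0.15).

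Markers of several leukocyte types were high in the same libraries as the chemokines. The 18 macrophage and monocyte markers summed to 4867, 865 and 1547 CPM in KO and 578, 537, 402 and 672 CPM in WT, and none was at 0 in a whole group. Of the 18, edgeR called 0, DESeq2 16 (background 5.32%) and edgeR without KO replicate 2 14 (background 3.34%), all higher. At an unadjusted p under 0.05 in edgeR, 17 were higher (background 9.92%). For 15 the groups did not overlap, with KO higher (background 8.17%). *Cx3cr1*, a receptor of resident macrophages, read 49.3, 9.21 and 20.7 CPM in KO and 1.94 to 4.05 CPM in WT, and *C1qb* 243, 69.1 and 125 CPM in KO and 24.7 to 43.9 CPM in WT. *Fcgr1* and *Cd14* were ordered likewise. The ratio of KO replicate 1 to KO replicate 3 in the marker sum was 3.15, near those of *Ccl3*, *Ccl8* and *Ccl9*. The part of macrophage number in the chemokine levels was not tested.

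Relative to that marker sum the groups were closer. The members amounted to 17.5, 11.6 and 18.1 CPM for each 100 CPM of markers in KO and to 8.80, 8.81, 10.1 and 12.6 in WT. The groups overlapped through KO replicate 2 and WT replicate 4 (exact permutation p = 0.0857). *Ccl12* stood at 0.180, 0.188 and 0.660 in KO and at 0.0314 to 0.145 in WT, so that KO was higher without overlap, as in CPM (exact permutation p = 0.0286). *Ccl11* ran the opposite way, at 0.185, 1.10 and 1.02 in KO and at 1.30 to 2.73 in WT (exact permutation p = 0.0286). In CPM its groups overlapped, while the marker sum it is divided by here was higher in every KO library. The p-values of single members are not adjusted for the 8 members tested on this scale.

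*Ccl9* did not overlap either, with KO higher (3.72 to 5.41 in KO, 2.20 to 3.52 in WT, exact permutation p = 0.0571). *Ccl6* overlapped narrowly, at 5.67 to 9.55 in KO and 3.48 to 5.71 in WT (exact permutation p = 0.0857). *Ccl2* reached 2.47 and *Ccl7* 2.66 in KO replicate 3, against WT maxima of 0.564 and 0.469, but KO replicate 2 lay at 0.231 and 0.196, within the WT range (exact permutation p = 0.229 for *Ccl2* and 0.143 for *Ccl7*). *Ccl5* (exact permutation p = 0.971) and *Ccl8* (0.314) also overlapped. *Ccl3* (0.0891 to 0.123 in KO, 0.0131 or less in WT) and *Ccl4* (0.0528 to 0.273 in KO, 0.0143 or less in WT) did not overlap and, with WT libraries at 0, were not tested on this scale.

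Neutrophil markers summed to 481, 16.3 and 66.2 CPM in KO and 10.9 to 24.8 CPM in WT. Of 9 tested, edgeR called 0 and DESeq2 5 higher (background 5.32%). At an unadjusted p under 0.05 in edgeR, 7 were higher (background 9.92%). *Csf3r*, a growth factor receptor of granulocytes, read 173, 3.87 and 23.8 CPM in KO and 1.29 to 2.38 CPM in WT, and *Cxcr2*, *S100a9* and *Retnlg* were also highest in KO replicate 1. These 4 had the smallest p of the list. Of the 9 neutrophil markers tested, 7 had a log2 fold change above 0 (46.9% of all genes) and the rest did not. For 2 the groups did not overlap, with KO higher (background 8.17%). Dendritic cell markers summed to 91.2, 43.5 and 54.1 CPM in KO and 30.8 to 40.7 CPM in WT. Of 7, edgeR called 0 and DESeq2 4 higher (background 5.32%). At an unadjusted p under 0.05 in edgeR, 6 were higher (background 9.92%). *Itgax*, *Xcr1*, *Flt3* and *Cd209a* had groups without overlap. The part of neutrophils and dendritic cells in the chemokine levels was not tested.

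Lymphocyte and mast cell markers gave sums that overlapped between the groups. T and NK cell markers summed to 16.8, 42.3 and 32.5 CPM in KO and 12.6 to 129 CPM in WT, B cell markers to 43.5, 18.9 and 29.2 CPM in KO and 12.4 to 31.3 CPM in WT, and mast cell and eosinophil markers to 61.6, 32.6 and 43.5 CPM in KO and 34.9 to 41.7 CPM in WT. For each of these 3 lists edgeR and DESeq2 called 0 genes. At an unadjusted p under 0.05 in edgeR, 1 gene of each was higher, of 13, 6 and 7 tested (background 9.92%). These were *Ncr1*, *Jchain* and *Siglecf*. The summed T and NK cell level was lowest among KO libraries in replicate 1, where *Ccl6* and *Ccl9* were highest. No defining marker of these lists was at 0 in all libraries.

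Among cells of the wall, 4 of 6 smooth muscle markers were lower by DESeq2 (background 3.05%). In edgeR 0 were called, with 4 lower at an unadjusted p under 0.05 (background 7.27%). *Acta2* read 1674, 6165 and 3080 CPM in KO and 7989 to 9202 CPM in WT, so the KO library with the highest chemokine sum had the lowest *Acta2*. *Smtn*, *Cnn1* and *Myh11* were ordered likewise. Fibroblast markers, relevant to *Ccl11*, summed to 11508, 7481 and 7274 CPM in KO and 5199 to 9406 CPM in WT and overlapped. *Lum* alone of these 6 was called higher by DESeq2 (background 5.32%), at 447, 422 and 486 CPM in KO and 139 to 225 CPM in WT. *Pi16*, *Dpt* and *Col1a1* overlapped. In edgeR 0 of the 6 were called, with 1 higher at an unadjusted p under 0.05 (background 9.92%). Endothelial markers (794 to 1408 CPM in KO, 1293 to 1473 CPM in WT) and adipocyte markers (1704 to 5273 CPM in KO, 2494 to 4757 CPM in WT) had 0 genes called by edgeR or DESeq2 and 0 at an unadjusted p under 0.05. The part of tissue make-up in the chemokine levels was not tested.

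The genes whose levels over the 7 libraries were most like the median profile of the members were, among non-members with a mean of 2 CPM or more, *Gm49339*, *Nlrp3*, *Msr1*, *Lair1* and *Fcgr1*. Their root mean square differences from that profile were 0.25, 0.29, 0.32, 0.33 and 0.33 on the log2 scale. *Nlrp3*, an inflammasome component, read 17.0, 1.36 and 4.88 CPM in KO and 0.445 to 0.896 CPM in WT. *Msr1*, a macrophage scavenger receptor, read 61.5, 4.64 and 23.4 CPM in KO and 2.18 to 3.72 CPM in WT. All 5 were highest in KO replicate 1 and lowest among KO libraries in replicate 2, above the WT range there. This order follows from choosing the genes by their likeness to that profile and is a description only. *Ccl9* was the member nearest to the median profile, at 0.53, and *Ccl3* the farthest, at 2.05.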

How the data were processed

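Per the labels' protocols, a SMARTER kit was used to make mRNA-Seq libraries from total RNA of aorta. The deposited values are estimated counts for each gene, as whole numbers in 1 table, which the authors did not scale between libraries. The submitters' processing notes name GRCm38 and mm10. Aligner, counter and strandedness: not given in the sources used here, so that reads of overlapping genes cannot be told apart. Between 8 and 40, multiples of 4 occurred 1.25 to 1.38 times as often as the values next to them, so totals are deposited counts and not reads, and the floor of 3 counts covers counting error only. Of 47729 identifiers 47224 matched a symbol; the others held 0.049% to 0.0711% of the counts and stayed in the tests.

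The whole table was fitted with edgeR 4.0.16 in R 4.3.3 (filterByExpr with *Mmp19* and *Acan* kept, 19188 genes, TMM, glmQLFit and glmQLFTest, no covariates). Benjamini-Hochberg adjustment ran over all genes, and adjusted p-values under 0.05 were called. Log2 fold changes are KO over WT, with the SE that matches the F statistic. For single values, an exact 2-sided permutation test ran over the 35 splits, on log2 values. Alternatives were DESeq2 1.42.0 on the same genes, where 2601 genes had no adjusted p, limma 3.58.1 (voom with quality weights), other scalings and filters, counts divided by 4, a replicate block and leaving out each library. The fit was tested on simulated counts. The members and the 18 gene lists (186 genes, some on more than 1 list) were chosen with earlier results of these data known. Named were *Mmp19*, the members, the genes of the receptor and chemokine lists, the 4 genes with the smallest p of each other list, and the 5 genes most like the members over the libraries. Positions and exon lengths are from GENCODE M21 (GRCm38, 1-based), promoters from RefSeq (GRCm38.p6). All 7 columns were used, and some genes of the pathway are not reported here.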

Additional observations from a re-analysis of the deposited data

Results flagged for a closer look

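Within the 4 WT libraries, the CPM of 33 CC chemokines and receptors was searched for a library far from the others by Dixon's ratio with a 95% critical value, which chance passes in about 1 of 20 groups; 9 were found. The KO group of 3 libraries was too small for this search. WT replicate 2 stood out for *Ccl3*, at 0.0704 CPM with the other WT libraries at 0, for *Ccr8*, at 0.113 CPM with the others at 0, for *Ccr4*, at 1.41 CPM against 0 to 0.109 CPM, and for *Ccr9*, at 16.3 CPM against 1.09 to 2.73 CPM. WT replicate 3 stood out for *Ccl4*, at 0.0574 CPM with the others at 0, for *Ackr1*, at 4.86 CPM against 1.96 to 2.16 CPM, and for *Ccrl2*, at 11.3 CPM against 9.25 to 9.46 CPM. WT replicate 4 stood out for *Ccl22*, at 1.30 CPM against 0.313 to 0.459 CPM, and WT replicate 1 for *Ccr1l1*, at 0.0627 CPM with the others at 0. For *Ccl3*, *Ccl4*, *Ccr8* and *Ccr1l1* the level is within a few deposited counts of 0. With the other WT libraries at 0, any count in a single library makes the ratio 1, which always passes. The rate of 1 in 20 does not hold for these genes, so the total of 9 cannot be set against it. WT replicate 2 also held the highest sum of T and NK cell markers, at 129 CPM, against 12.6 to 17.3 CPM in the other WT libraries.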

How the results depend on the processing

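The count of CC chemokines past the threshold was 0 of 10 with edgeR, 9 with DESeq2 and 0 to 8 when single libraries were left out, the 8 being without KO replicate 2; the receptors gave 0, 2 and 0 to 2, again with 2 without KO replicate 2. Over all genes the count was 3 with edgeR, 0 without a filter, 7 with at least 50 counts in 3 libraries, 1606 with DESeq2, 7 with limma-voom, 5 with the non-legacy quasi-likelihood fit (added after seeing the data), 7 with counts divided by 4 and 0 to 1029 when single libraries were left out, the 1029 being without KO replicate 2 and all others 0. With the replicate block the count was 0 of all genes and 0 of the members. Same-numbered libraries deviated together with correlations of 0.0545, 0.0691 and 0.340 for replicates 1, 2 and 3. KO replicates 1 and 2 correlated best with another number, and KO replicate 3 with its own. So few pairs cannot decide whether the numbers pair the libraries. The cause of these shifts was not tested. The planned legacy fit is the main fit. Over the members and settings, 159 estimates kept direction and side of the threshold, 17 newly passed it and 1 reversed, namely *Ccl11*, which ranged from -0.063 without KO replicate 3 to 0.39 without KO replicate 2. Levels per kilobase moved with coding length in place of exon length, for *Ccl6* to 68.9 and for *Ccl11* to 33.5 CPM per kilobase in WT, and changed the order of members in both groups. The log2 ratio of the members to the macrophage markers, KO minus WT, stayed between 0.52 and 0.84 when single libraries were left out and with each of the 18 markers left out (added after seeing the data). Depth limits *Ccl3* and *Ccl4* in WT, where 3 counts are 0.0407 to 0.047 CPM.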
